A study of Mus musculus with 4 samples.

Results

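Proximal tyrosine kinases and the phosphatases that oppose them were followed in mouse macrophages with and without Pparg, the gene of the lipid-activated nuclear receptor PPARγ. The 8 genes, chosen by name, were Ptpn6 (SHP-1), Ptprc (CD45), Inpp5d (SHIP-1), Sirpa (SIRP alpha), Lyn, Fgr, Syk and Btk. All probe sets with values that the platform annotation maps to them were taken, which gave 12 probe sets for 7 of the 8 genes, of 10649 probe sets and 7577 named genes in all. The annotation used here lists no probe set for Lyn, which was not analysed. One further probe set each of Ptprc and Btk was blank on the arrays. Of the 12 probe sets, 11 passed the filter on low signals.

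Thioglycollate-elicited peritoneal macrophages came from mice labelled PPARg WT and PPARg KO, which share a mixed genetic background from the strains 129/SV and C57BL/6. Each genotype was measured on 2 one-colour Affymetrix arrays. Thioglycollate provokes a sterile inflammation to which monocytes migrate and become macrophages. Each mouse received 2.5 ml of it at 3%, and the cells were lavaged 3 days later, plated and kept for 24 h in medium with 0.5% serum, with no ligand or stimulus named. The labels do not give the ages of the mice, how or in which cells Pparg was deleted, or whether replicate arrays represent different animals. Replicate 2 of each genotype is described as a dup, so the p-values below measure a spread between arrays that may be technical. In such bulk samples, fewer cells of a type and less RNA per cell cannot be told apart.

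In macrophages, Src-family kinases such as Fgr and Lyn phosphorylate the tyrosine motifs of Fc receptors, lectins and integrin adaptors. Syk docks on those phosphorylated motifs (ITAMs), and Syk and Btk then pass the signal to adaptors and lipases. The brake works through related motifs (ITIMs) on inhibitory receptors such as Sirpa, which binds Cd47 on other cells: once phosphorylated they recruit SHP-1, which removes phosphate from tyrosine, and in some receptors SHIP-1, which removes phosphate from a membrane inositol lipid. CD45 is a phosphatase too, and it strips the inhibitory phosphate from Src-family kinases.

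Signals are intensity units on a linear scale, given per array or as mean ± SD (n = 2). Differences give KO relative to WT as log2(signal + 16), negative where KO was lower, and folds are taken on the same scale, so they slightly understate changes of dim probe sets. Adjusted p-values are those of limma with Benjamini-Hochberg adjustment over the 6389 probe sets tested, with 0.05 as the threshold. Intervals are 95% intervals of that fit. The number of arrays limits the precision. Levels of different probe sets are not set against each other, since probes differ in how strongly they bind.

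One of the 11 tested probe sets, that of Ptpn6, was lower in KO past the threshold, and no other passed in either direction. Over all 6389 probe sets the background share was 3.55% for calls in either direction, 2.54% for lower in KO and 1.02% for higher in KO. With all 4 arrays 162 calls were lower and 65 higher. The balance of directions was near even without KO replicate 1, while lower calls remained the more numerous without any other array. The median difference over all tested probe sets was 0.009 without KO replicate 1, -0.06 without KO replicate 2 and -0.02 without either WT array. KO means were lower than WT means for 9 of the 11 (57.9% of all tested probe sets), with a median difference of -0.10 against -0.02 for all tested probe sets. Both KO arrays lay below both WT arrays for 3 of the 11, a probe set each of Ptpn6, Sirpa and Syk, and above them for 0. Of all tested probe sets, 21.1% lay wholly below, 11.3% wholly above and 32.4% in either position. The genotype difference exceeded the gaps between replicate arrays in both genotypes for 2 of the 11 (18.2%), those of Ptpn6 and one of Syk, against 22.1% of all tested.

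**Figure D1:**
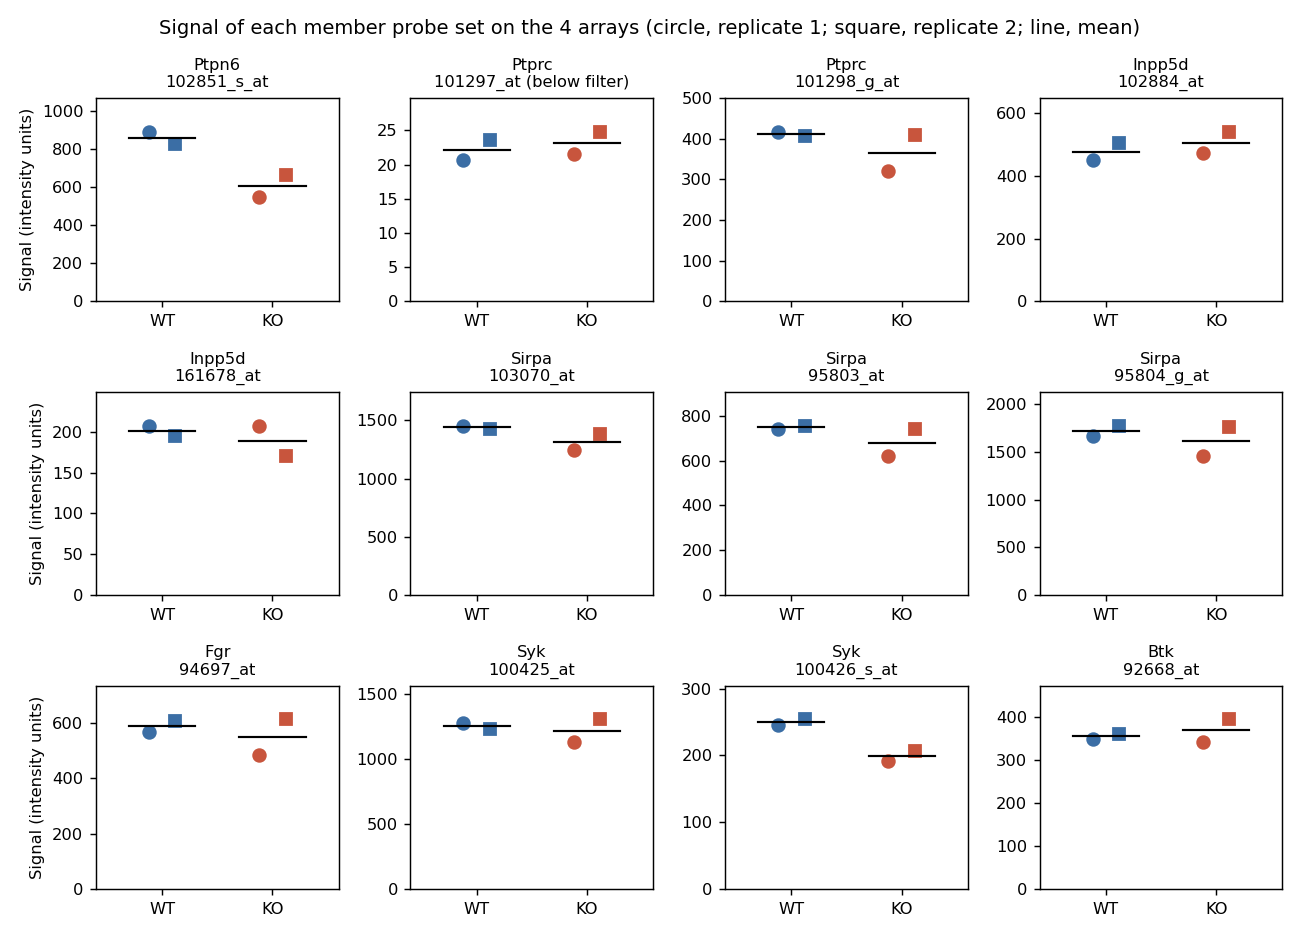
Signal in intensity units (vertical axes from 0, each on its own scale) of the 12 member probe sets in WT and KO. Circles are replicate 1, squares replicate 2 and lines the mean of 2 arrays; both KO arrays of Ptpn6 (551.8 and 665.7) sit below both WT arrays (892.4 and 828.1), while KO replicate 2 of Fgr and Btk is the highest of the 4 arrays.

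The promoter windows of Ptpn6 and of Inpp5d are shown because they are the SHP-1 and SHIP-1 genes, of which the first passed the threshold and the second did not. The sequences are RefSeq's for build GRCm38.p6, from 250 bases before to 50 after the gene start, printed 5′ to 3′ on the gene's strand. Ptpn6 lies at chr6:124738660-124738959 on the minus strand and Inpp5d at chr1:87620062-87620361 on the plus strand. Capitals mark matches, on either strand, to GGGCGG, the GC box of SP1-type factors, and to GAGGAA, an ETS motif of the kind bound by the myeloid factor PU.1.
Ptpn6: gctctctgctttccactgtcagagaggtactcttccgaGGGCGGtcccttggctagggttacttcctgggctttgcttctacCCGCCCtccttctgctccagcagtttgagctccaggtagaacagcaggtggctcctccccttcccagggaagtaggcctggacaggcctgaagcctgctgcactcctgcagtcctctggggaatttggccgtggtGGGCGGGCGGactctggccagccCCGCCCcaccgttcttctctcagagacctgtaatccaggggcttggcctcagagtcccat
Inpp5d: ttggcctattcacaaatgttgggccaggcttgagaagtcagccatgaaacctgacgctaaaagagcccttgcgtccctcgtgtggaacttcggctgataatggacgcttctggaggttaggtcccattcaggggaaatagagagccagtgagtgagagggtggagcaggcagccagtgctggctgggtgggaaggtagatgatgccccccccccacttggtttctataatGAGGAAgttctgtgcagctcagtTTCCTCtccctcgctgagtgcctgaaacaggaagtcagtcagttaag
The Ptpn6 window held 5 matches to GGGCGG, a pair of which overlap, and 0 to GAGGAA, whereas the Inpp5d window held 0 and 2. A promoter window was found for 6 of the 8 genes, 8 windows in all, as Ptprc and Syk have more than one. GAGGAA occurred in 5 of the 8 windows, in at least one of every gene but Ptpn6, and in 28.3% of all 32851 windows of this length in the table. GGGCGG occurred in 1 of the 8 and in 35.7% of all windows. AGGTCA, the core motif of PPAR and related nuclear receptors, occurred in 0 of the 8 windows and in 16.3% of all windows. These motifs were picked with the results known, and a match or its lack in a short window is a description of the letters and says nothing of binding.

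Ptpn6, the SHP-1 gene, had the largest difference of the group. Its probe set (102851_s_at) read 892.4 and 828.1 in WT replicates 1 and 2, and 551.8 and 665.7 in KO replicates 1 and 2. Both KO arrays were lower than either WT array, and all 4 lay above the brightest antisense control of their array. The mean fell from 860 ± 45.5 to 609 ± 80.5, 1.41-fold (log2 difference -0.49, SE 0.15, interval -0.79 to -0.20, adjusted p = 0.033). The call rests on few arrays. Without WT replicate 1 the difference was -0.44, without WT replicate 2 it was -0.55 and without KO replicate 1 it was -0.36, none past the threshold. Without KO replicate 2 it was -0.62 and past the threshold. In the fits without a WT array the spread comes from the KO arrays alone, whose gap was the larger one for 67.4% of all tested probe sets. The Ptpn6 difference also missed the threshold after median centring (-0.47, adjusted p = 0.11) and without variance moderation (0.84), and lay under a 1.5-fold rule. Normalizations that act along the whole range of brightness kept it past the threshold, quantile normalization at -0.46 (adjusted p = 0.00079) and cyclic loess at -0.47 (0.00028). They also raised the calls over all tested probe sets from 227 to 419 and 435, so the smaller p is not particular to Ptpn6. In Affymetrix naming the suffix _s_at marks probes that can match more than one transcript, so a share of this signal may come from a related transcript.

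The genes whose 4 values ran most like those of Ptpn6, by the smallest Euclidean distance between log2 values centred on each probe set's own mean over the 4 arrays, were N4bp1, Lgals3bp and Psmb8, at distances of 0.034, 0.035 and 0.075. N4bp1 read 263.7 and 240.4 in WT and 159.9 and 188.8 in KO. Lgals3bp read 2126 and 2029 in WT and 1318 and 1592.5 in KO. Psmb8 read 3063.5 and 2958 in WT and 2014 and 2275 in KO. N4bp1 and Lgals3bp passed the threshold (adjusted p = 0.00072 and 0.035) and Psmb8 did not (0.0504). The profile shared by all of them is higher in WT replicate 1 than WT replicate 2, and lowest in KO replicate 1. That likeness follows from how the genes were picked.

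Inpp5d, the SHIP-1 gene, did not pass with either probe set. The first (102884_at) read 449.3 and 505.5 in WT and 471.2 and 540.1 in KO, a log2 difference of 0.08 (interval -0.20 to 0.36). The second (161678_at) read 206.9 and 194.4 in WT and 207.6 and 169.8 in KO, a difference of -0.09 (interval -0.31 to 0.13). The genotypes overlapped in both, the probe sets pointed in opposite directions, and the lower bounds of their intervals correspond to falls smaller than the Ptpn6 estimate. The interval of Ptpn6 itself reached up to -0.20, so it touched that of the first Inpp5d probe set and overlapped that of the second. A test of Ptpn6 against Inpp5d was not run.

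Ptprc encodes CD45, the abundant receptor-type phosphatase of leukocytes. Its brighter probe set (101298_g_at) read 416.8 and 407.3 in WT and 320.8 and 410.1 in KO. Only KO replicate 1 was low, and KO replicate 2 lay between the WT arrays, so the genotypes overlapped. The log2 difference was -0.18 (interval -0.44 to 0.09, adjusted p = 0.93). The other probe set (101297_at), made from the same accession, read 20.7, 23.6, 21.6 and 24.8, below the antisense control median on all 4 arrays and under the filter. The 2 WT and 2 KO values overlapped there (log2 difference 0.04, adjusted p = 0.9994 in the fit without a filter, which called 3.11% of 10649 probe sets).

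Sirpa, the inhibitory receptor of the group, had 3 probe sets, none past the threshold. The first (103070_at) read 1454.5 and 1427 in WT and 1246 and 1382 in KO, so both KO arrays lay below the WT arrays, with a log2 difference of -0.13 (interval -0.44 to 0.18). The pair made from one further accession read 740.5 and 755.7 in WT and 618.2 and 741.3 in KO (95803_at, -0.14), and 1667 and 1776 in WT and 1460 and 1764 in KO (95804_g_at, -0.10). In all 3, KO replicate 1 was the lowest array and KO replicate 2 lay within 0.06 of the WT mean on the log2 scale. Adjusted p was 0.9997 for each. Cd47, the ligand of Sirpa, read 590 and 567 in WT and 457 and 503.5 in KO and did not pass (log2 difference -0.26, adjusted p = 0.62).

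Fgr was the one Src-family kinase among the members with a probe set. It read 569.4 and 607.3 in WT and 485.3 and 613.8 in KO (94697_at). The KO arrays held both the lowest and the highest of the 4 values, and the log2 difference was -0.10 (interval -0.39 to 0.18, adjusted p = 0.9997).

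Syk, the kinase that docks on ITAMs, gave different sizes from its 2 probe sets. The brighter (100425_at) read 1278 and 1235 in WT and 1130 and 1307 in KO, with overlapping genotypes and a log2 difference of -0.05 (interval -0.36 to 0.26, adjusted p = 0.9997). The dimmer (100426_s_at), made from another accession, read 245.0 and 253.9 in WT and 192.3 and 206.0 in KO. Both KO arrays were below both WT arrays, and the mean was 1.23-fold lower (log2 difference -0.30, SE 0.12, unadjusted p = 0.0084). After adjustment p was 0.17, so it did not pass. It too carries the suffix _s_at.

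Btk, the Tec-family kinase downstream of Syk, read 349.8 and 362.2 in WT and 343.7 and 395.2 in KO (92668_at). The KO arrays lay on either side of the WT arrays, and the log2 difference was 0.05 (interval -0.21 to 0.31, adjusted p = 0.9997).

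**Figure D2:**
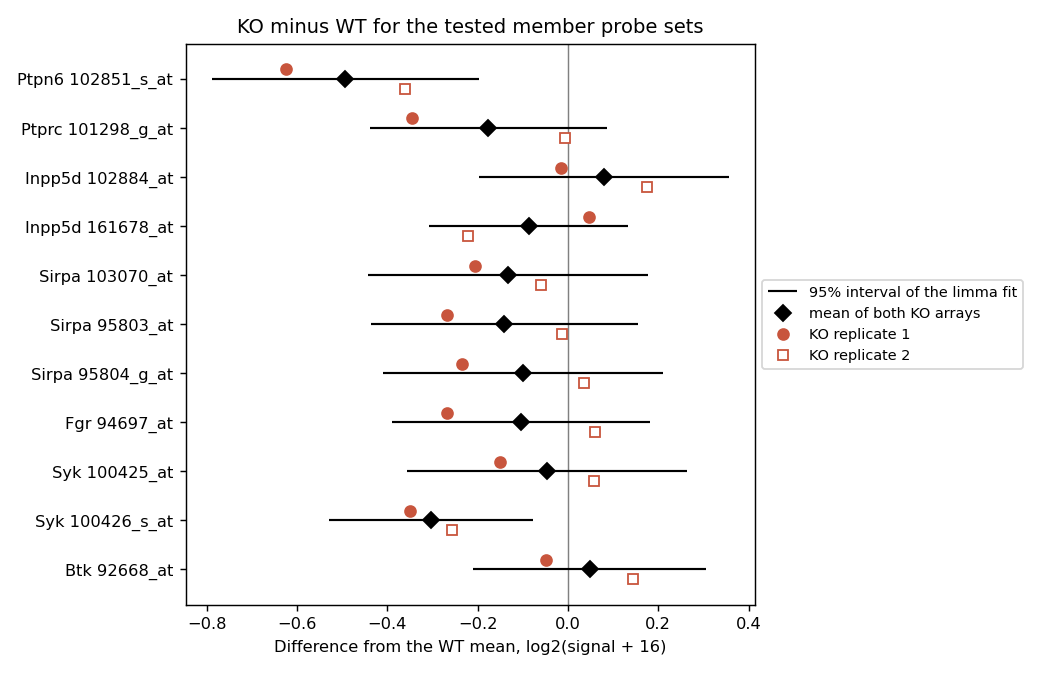
Difference of each KO array from the WT mean (circles, KO replicate 1; open squares, KO replicate 2) and the mean difference (diamonds) with the 95% interval of the fit, on the log2(signal + 16) scale, for the 11 tested member probe sets. Only the probe sets of Ptpn6 (-0.79 to -0.20) and the dimmer one of Syk (-0.53 to -0.08) have intervals wholly below 0, and KO replicate 1 lies left of KO replicate 2 in all but 1 row, the dimmer one of Inpp5d.

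One KO array stood apart on these genes. KO replicate 1 was the lowest of the 4 arrays for 9 of the 11 probe sets, against 46.8% of all tested probe sets and 59.9% to 62.8% of those in deciles 7 to 10 of brightness, where 9 of the 11 lie. The median difference from the WT mean over the 11 was -0.23 for KO replicate 1 and -0.0065 for KO replicate 2. Over all tested probe sets these medians were -0.06 and 0.009. The gap between replicates was larger in KO than in WT for 11 of 11 probe sets, against 67.4% of all tested. Its median size was 0.26 in KO and 0.05 in WT over the 11, and 0.16 and 0.10 over all tested, where KO gaps were the larger ones too. The references over all tested include dim probe sets and are not matched for brightness. In deciles 7 to 10 the median of replicate 2 minus replicate 1 ran from 0.17 to 0.21 in KO and from 0.03 to 0.07 in WT. All 9 probe sets of the BioB, BioC, BioDn and CreX hybridisation controls, which are bacterial and phage transcripts added to each sample, were also lowest on KO replicate 1. Their median log2 deviation from the mean of the 4 arrays was -0.18 there and -0.06 on WT replicate 1. On WT replicate 2 and KO replicate 2 it was 0.11, so these controls were low on both replicate 1 arrays. The part of KO replicate 1 in the differences was not tested. Without it, 6 of the 11 member probe sets had lower values in KO, with a median of -0.0065, 0 passed the threshold, and Ptpn6 was at -0.36. After cyclic loess, which removes a difference between arrays that shifts with brightness, 9 of the 11 were lower with a median of -0.10, and after quantile normalization 8 were, with a median of -0.052.

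**Figure D3:**
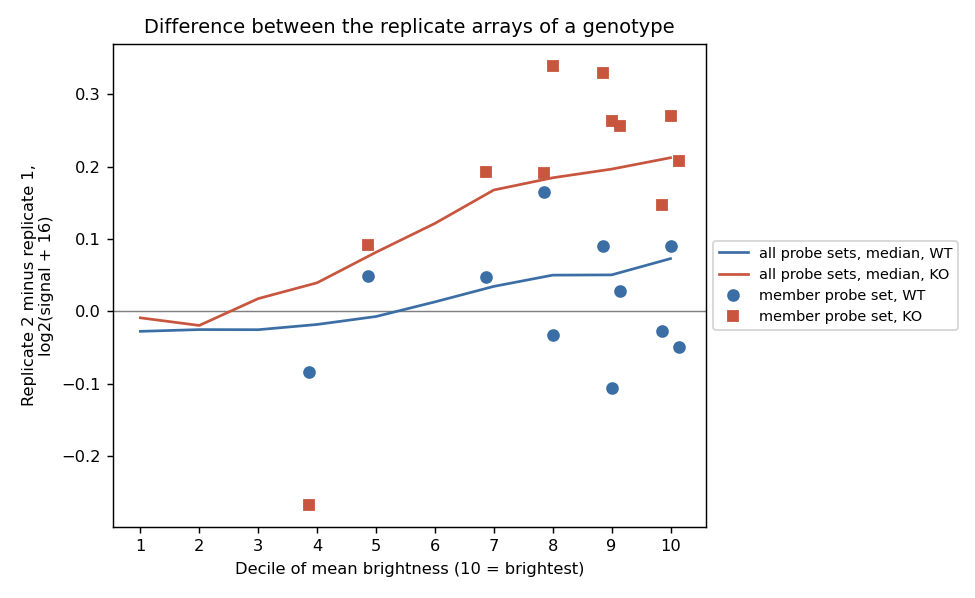
Replicate 2 minus replicate 1 within each genotype on the log2(signal + 16) scale, by deciles of mean brightness. Lines are medians of all tested probe sets, which reach 0.21 in KO and 0.07 in WT in the brightest decile; points are the 11 member probe sets, whose gaps run from -0.27 to 0.34 in KO and from -0.11 to 0.16 in WT.

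Further genes of the pathway were read from the same fit in 9 lists. Of 133 listed genes, 91 had values and 69 were tested, each by its brightest probe set. Of the 69, 5 fell, 1 rose and 63 did not pass, a share called of 8.70% beside 3.72% of all 5002 genes tested (2.66% lower and 1.06% higher). The median log2 difference was -0.04 over the 69 and -0.02 over all genes. No test of the lists was run.

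Among kinases, 0 of 2 other Src-family members and 0 of 7 other cytoplasmic tyrosine kinases passed, with list medians of -0.21 and 0.06. Fyn had the smallest p of the first list, at 144.3 and 119.8 in WT and 115.7 and 106.3 in KO (log2 difference -0.22, adjusted p = 0.52). On every array but WT replicate 1 it lay below the brightest antisense control. The other gene of that list did so on all 4 arrays, so the list median rests on dim signals. Tec, the relative of Btk that names their family, had the smallest p of the second, at 584 and 617 in WT and 628 and 767.5 in KO (0.21, adjusted p = 0.91). Of the other phosphatases, 0 of 10 tyrosine phosphatases passed (median 0.02), with Ptpra closest at 302.8 and 249.8 in WT and 293.9 and 332.6 in KO (0.18, adjusted p = 0.89). One of 7 other inositol phosphatase genes passed (median -0.06). Inpp5b, an inositol polyphosphate phosphatase, read 831 and 835 in WT and 545.6 and 627 in KO, with the genotypes apart. It fell 1.41-fold (log2 difference -0.50, SE 0.15, adjusted p = 0.029). A second Inpp5b probe set passed as well (-0.52, adjusted p = 0.011).

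Receptors and adaptors gave the remaining calls. Ceacam1, an adhesion receptor whose ITIMs can recruit SHP-1, read 135.5 and 148.5 in WT and 177.4 and 202.2 in KO. Its WT values lay below the brightest antisense control of their array. Both KO arrays were higher, and it rose 1.30-fold (log2 difference 0.38, adjusted p = 0.019), 1 of 4 inhibitory receptors tested (median 0.13); its dimmer probe set did not pass (0.27, adjusted p = 0.25). Clec4e, a lectin that signals through an ITAM adaptor, read 426.8 and 358.5 in WT and 202.8 and 235.9 in KO. It fell 1.73-fold (-0.79, adjusted p = 2.56e-08), the only one of 7 ITAM receptors and adaptors to pass (median 0.01). Fcer1g, its adaptor, did not pass, at 338 and 337 in WT and 304 and 334 in KO. Tyrobp, the DAP12 adaptor of other receptors, did not pass either and read 4408 and 4698 in WT and 4708 and 5736 in KO.

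Itgal, the alpha chain of the integrin LFA-1, read 272.8 and 302.4 in WT and 191 and 193.7 in KO. It fell 1.46-fold (-0.54, adjusted p = 0.00023), 1 of 5 in the list of Cd47 and integrins (median -0.06). Lcp2, which encodes the adaptor SLP-76 that Syk phosphorylates, read 340.2 and 299.7 in WT and 200.1 and 229.2 in KO. It fell 1.46-fold (-0.54, adjusted p = 0.00039), 1 of 22 adaptors and effectors (median -0.07). Pag1, a membrane adaptor that brings the inhibitory kinase Csk to Src-family kinases, read 189.5 and 155.3 in WT and 116.2 and 127.1 in KO. On WT replicate 2 and both KO arrays it lay below the brightest antisense control of the array. It fell 1.36-fold (-0.45, adjusted p = 0.0023), 1 of 5 negative adaptors and ligases (median -0.07), while Csk itself read 396 and 448 in WT and 400 and 496 in KO. In all 6 called genes the KO arrays lay wholly on one side of the WT arrays, as did 32.4% of all tested probe sets. The 6 were called on the same arrays, so this adds no support. Clec4e kept its call with each array left out, and the other called genes did not. Over those fits its difference ran from -0.92 to -0.67, and that of Ceacam1 from 0.29 to 0.47. Inpp5b ran from -0.60 to -0.40, Lcp2 from -0.63 to -0.45, Itgal from -0.61 to -0.47 and Pag1 from -0.58 to -0.32. Without either WT array Inpp5b was at -0.50. In fits without a WT array the spread comes from the KO arrays alone. Inpp5b also lost its call after median centring (-0.47, adjusted p = 0.098).

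**Figure D4:**
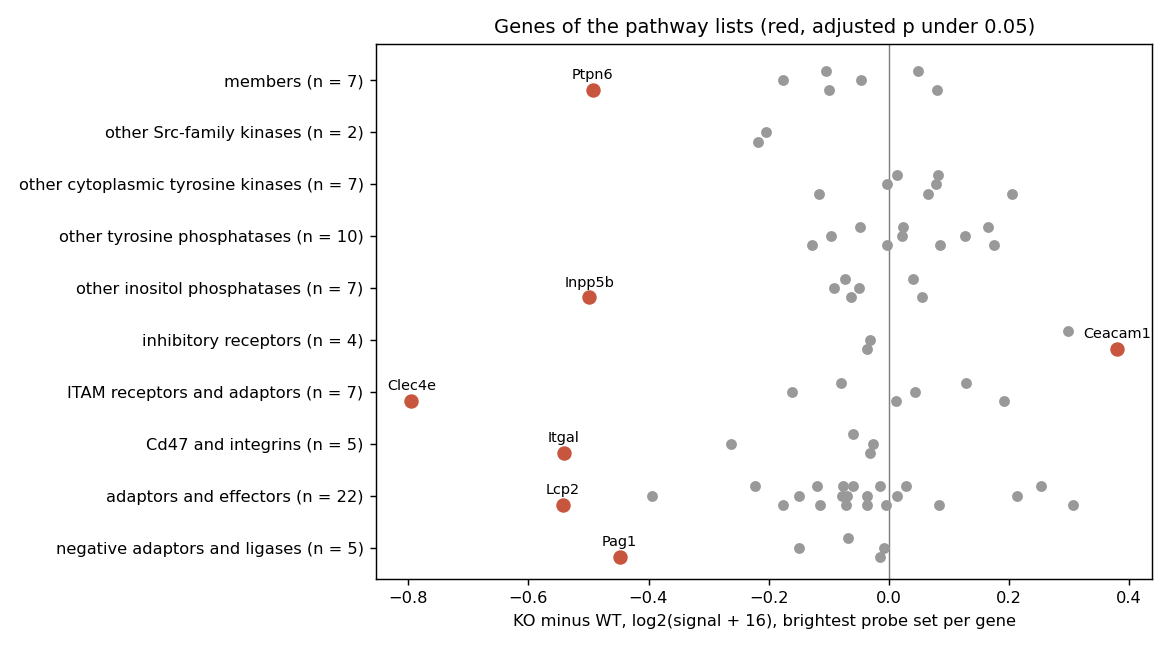
Log2 difference between KO and WT (horizontal axis, log2(signal + 16) scale) for the tested genes of the members and of the 9 pathway lists, each gene by its brightest probe set; the small vertical offsets only separate points. Red points have an adjusted p under 0.05: Ptpn6, Inpp5b, Clec4e, Itgal, Lcp2 and Pag1 left of 0 and Ceacam1 right of it.

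The series as a whole was checked as follows. Array medians ran from 137 to 142, and 75.2% to 82.3% of tested probe sets exceeded the brightest antisense control of an array. The Pparg probe set read 61.1 and 73.1 in WT and 43.0 and 40.6 in KO, all below the antisense control median (log2 difference -0.52, adjusted p = 0.00012 without a filter), and the labels do not say whether it lies in the deleted part. All 12 macrophage markers with values were tested: Ctss, the brightest, read 9092 and 9408 in WT and 8923 and 10016 in KO, Mrc1 rose (adjusted p = 1.04e-13, both WT arrays below the antisense control median) and Mertk fell (log2 difference -0.63, adjusted p = 1.37e-06).

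Other leukocytes also use these kinases and phosphatases, so their markers are given beside the results. Of 12 neutrophil markers with values 6 were tested and 1 fell: S100a8, from 530 ± 17.9 to 350.5 ± 27.9 (log2 difference -0.58, adjusted p = 0.0015). Without WT replicate 1 and 2 the S100a8 difference was -0.61 and -0.54, not past the threshold, with the spread taken from the KO arrays alone. The summed signal of the 12 was 1999 and 2092 in WT and 1929 and 1862.5 in KO. Of the 12, 5 lay below the antisense control median on every array, among them S100a9, Ly6g and Cxcr2, and Csf3r, the brightest, read 442.5 and 453.2 in WT and 494.9 and 434.4 in KO. Of 9 B cell markers 7 were tested and 0 passed, with sums of 1947 and 2005 in WT and 1899 and 1981 in KO, and Cd37 was the brightest (528 and 521 in WT, 514 and 545 in KO). Of 12 T and NK cell markers 4 were tested and 0 passed, with sums of 1478.5 and 1442.5 in WT and 1527 and 1356 in KO, and 7 lay below the antisense control median throughout, Cd3d and Cd3g included; Zap70 was the brightest (434 and 375 in WT, 465 and 384 in KO). Dendritic cell markers (4 of 6 tested, Itgax the brightest) and mast cell and eosinophil markers (3 of 9 tested, Tpsb2 the brightest) had 0 called, with sums from 1459 to 1658 and from 889 to 958. Of 13 fibroblast and mesothelial markers 7 were tested and 2 rose, with sums of 2550.5 and 2549 in WT and 3104 and 3508 in KO. These were Dcn (log2 difference 0.75, adjusted p = 6.31e-05) and Sparc (adjusted p = 1.70e-06). Dcn was the brightest, at 616 and 561 in WT and 945 and 1060 in KO. Without WT replicate 1 and 2 the Dcn difference was 0.82 and 0.69, not past the threshold, with the spread taken from the KO arrays alone. Both WT arrays of Sparc lay below the antisense control median. The fit without a filter, over all markers with values, called the same 5 markers as the filtered fit and no other. The part of these cell types in the differences of the kinase and phosphatase genes was not tested.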

How the data were processed

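The values deposited by the authors are linear intensity units, judged by their range; no source used here states their probe summary, background correction or scaling. Per the labels' protocols, plating was in 10% serum with a wash at 5 h, and 10 µg of total RNA went into each cRNA.

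Of 12488 rows, 1780 were blank and 59 were controls, which left 10649 probe sets, 9389 of them with 1 gene, 341 with several and 919 with none in the platform annotation; 9377 matched RefSeq's gene table (GRCm38.p6) and 0 symbols changed. Array medians on the log2 scale differed by less than 0.1, so values were used as deposited. Probe sets whose mean log2(signal + 16) was above the 40th percentile (near a signal of 111) entered the test, run in limma 3.58.1 in R 4.3.3 (lmFit, eBayes with an intensity trend, two-sided). The estimated prior was infinite, so the spread of a probe set is the trend value at its brightness (12778 degrees of freedom), which favours calls of genes whose own replicates vary more. The code was tested on simulated data. Figures used matplotlib 3.10.9 in Python 3.11.15.

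The members, lists and motifs were chosen with earlier results of these data known. Named are Pparg, all member probe sets, in each pathway list the genes that passed or else the one with the smallest p, in each marker list the brightest gene and those that passed, and the 3 genes most like the member that differed most. Cd47, Csk, Fcer1g, Tyrobp and the markers given as below the controls were named after their values were seen. Alternatives were quantile, median and cyclic loess normalization, other filters, pseudocounts, moderation and thresholds, averaged probe sets per gene, a replicate block and each array left out; in the last case the spread of the lone array is taken from the other genotype.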

Additional observations from a re-analysis of the deposited data

How the results depend on the processing

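With 2 arrays a genotype and a pooled spread, the number of calls depended on the settings. Over all tested probe sets, 227 were called; quantile normalization gave 419 (40.6% of them higher in KO, against 28.6%), cyclic loess 435, an added 1.5-fold rule 90, the replicate block 480 and no moderation 0 (388 at an unadjusted p under 0.05, against 605). Leaving out each array gave 54 to 327. The 1 called member probe set became 0 with median centring, no moderation or the 1.5-fold rule and 2 with the replicate block (Syk 100426_s_at joined Ptpn6, adjusted p = 0.015), and was 0 to 1 with each array left out. The 6 called pathway genes became 12 with quantile normalization, 11 with cyclic loess, 5 with median centring, 1 with the 1.5-fold rule and 0 without moderation, and 2 to 6 with each array left out. The titles' replicate numbers share no stated animal, batch or day; deviations from the genotype mean of WT and KO replicate 1 correlated at 0.42 over 6389 probe sets.

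Among the named genes, no difference past the threshold changed direction. Differences near 0 did so with an array left out, over the following ranges: Ptprc 101297_at from -0.020 to 0.098, Inpp5d 102884_at from -0.016 to 0.17, Inpp5d 161678_at from -0.22 to 0.046, Sirpa 95804_g_at from -0.23 to 0.035, Fgr from -0.27 to 0.060, Syk 100425_at from -0.15 to 0.057, Btk from -0.048 to 0.14, Ctss from -0.052 to 0.11, Csf3r from -0.042 to 0.14, Cd37 from -0.027 to 0.054, Zap70 from -0.067 to 0.20, Itgax from -0.22 to 0.0020, Csk from -0.070 to 0.23, S100a9 from -0.22 to 0.054, Cxcr2 from -0.041 to 0.23 and Cd3g from -0.049 to 0.15. Syk 100425_at also turned with quantile normalization (0.0079). The cause was not tested. Ptpn6 stayed negative in all 17 alternatives, from -0.62 to -0.36, and the dimmer Syk probe set from -0.35 to -0.25.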
